A study of Rattus norvegicus with 12 samples.

Results

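Iron export from the gut epithelium was examined through the probe sets of Slc40a1, which encodes ferroportin, and Heph, which encodes hephaestin, in the jejunal mucosa of rats. The members were all probe sets whose single gene symbol in the platform annotation was Slc40a1 or Heph. These 2 genes, of 13810 named on the arrays, had 4 of the 31142 probe sets of the series, 3 for Slc40a1 and 1 for Heph. All 4 were on the Affymetrix array 230A, which held 15866 probe sets besides its controls, and 0 of the 15276 on array 230B carried either symbol. RNA came from mucosa scraped off the jejunum, the part of the small intestine behind the duodenum, in a low Fe group and a high Fe group. Each group had 3 samples, numbered in the titles, and each sample was run on both array types. The labels of all samples give week 12, without saying whether this is an age or a time on an iron regime, and those of the 230A samples carry the keywords iron deficiency and anemia. Strain, sex, diet and any pooling of animals are not given in the sources used here, so the spread behind each p-value may be technical, not between animals.

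Dietary iron that has entered an enterocyte leaves it across the basolateral membrane, which faces the blood. Ferroportin is the only known exporter of ferrous iron in mammals. Hephaestin, a membrane-bound copper-containing ferroxidase, oxidizes the exported iron so that it can load onto transferrin, and mice with a defective Heph gene retain iron in their enterocytes. Ferroportin is controlled at several levels. The liver hormone hepcidin makes the protein leave the membrane and be degraded, an iron responsive element at the start of its messenger restrains translation when iron is scarce, a transcript from another start lacks that element, and in mice hypoxia-inducible factor 2 raises its transcription. The arrays measure transcript only.

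The stretches of 250 bases before an annotated start of Slc40a1, Heph and Slc11a2 are shown because the 3 genes act along one transport route. Slc11a2, the gene of the apical iron importer, is compared with the members below. The stretches are RefSeq sequences of build GRCr8, read in the direction of the gene. The annotated spans of Slc40a1 (chr9:55525457-55633463) and Heph (chrX:65160628-65412457) reach further ahead of these starts. Stretches before any other start of these genes were not searched. The Slc40a1 stretch lies on the minus strand at chr9:55543461-55543710, the Heph stretch on the plus strand at chrX:65308806-65309055, and the Slc11a2 stretch on the minus strand at chr7:133417789-133418038. Capitals mark matches to the searched motifs.
Slc40a1: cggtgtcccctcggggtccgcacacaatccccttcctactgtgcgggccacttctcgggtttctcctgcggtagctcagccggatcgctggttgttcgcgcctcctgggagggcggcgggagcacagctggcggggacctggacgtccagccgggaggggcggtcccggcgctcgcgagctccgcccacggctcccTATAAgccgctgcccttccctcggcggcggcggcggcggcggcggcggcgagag
Heph: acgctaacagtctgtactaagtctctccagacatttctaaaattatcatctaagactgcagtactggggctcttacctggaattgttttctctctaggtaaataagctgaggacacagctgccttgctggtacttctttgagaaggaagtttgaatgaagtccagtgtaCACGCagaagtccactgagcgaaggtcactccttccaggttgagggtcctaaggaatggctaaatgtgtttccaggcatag
Slc11a2: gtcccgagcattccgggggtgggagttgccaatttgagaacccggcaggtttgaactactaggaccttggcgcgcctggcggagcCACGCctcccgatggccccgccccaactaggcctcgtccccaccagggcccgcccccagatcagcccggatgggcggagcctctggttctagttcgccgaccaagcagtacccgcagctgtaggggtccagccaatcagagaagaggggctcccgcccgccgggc

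The motifs searched on both strands were the hypoxia-inducible factor cores ACGTG and GCGTG, the metal response motifs TGCACNC and TGCGCNC, the antioxidant response motif TGACNNNGC and the TATA motif TATAA. Slc40a1 had 1 match, TATAA, from 54 to 50 bases before the start, a motif found in 24.1% of the 27457 RefSeq stretches of this length. Heph had 1 match, GCGTG on the minus strand from 81 to 77 bases before the start, and so had Slc11a2, from 165 to 161 bases before it. GCGTG occurred in 27.2% of the stretches, and ACGTG, which was in none of the 3 shown, in 16.9%. The metal response motifs occurred in 10.2% and 12.7% of all stretches and the antioxidant motif in 10.2%, with no match in the 3 shown. No match says only that these letters are not in this window, and the arrays do not measure binding there. Base composition differed between these stretches. G and C made up 74.0% of the Slc40a1 stretch, which had 33 CG pairs, 68.0% of the Slc11a2 stretch, with 19, and 44.8% of the Heph stretch, with 3.

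Transcript of the iron exporter was detected well above the dim range of the array in both groups, and neither member passed the test for a difference. The brightest Slc40a1 probe set, 1387130_at, had signals of 5469, 4750 and 2978 in low Fe replicates 1, 2 and 3, against 3573, 3756 and 3613 in the high Fe replicates. Low Fe replicates 1 and 2 lay above all high Fe samples and low Fe replicate 3 below them, so the groups overlapped. The mean was 4399 ± 1282 in low Fe and 3647 ± 96.6 in high Fe (SD, n = 3 each). The low Fe SD was 29.1% of its mean and the high Fe SD 2.65% of its own. All 4 member probe sets lay above the filter that left out the dimmest 40% of probe sets, whose boundary was at a signal of 106.

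The next brightest Slc40a1 probe set, 1390412_at, had signals of 4405, 4507 and 3334 in low Fe, against 3259, 3294 and 2837 in high Fe. Every low Fe sample was above every high Fe sample, by a narrow margin for low Fe replicate 3. Groups separated in this direction for 5.61% of the 9519 tested probe sets of 230A, so 1 of 4 members in that position is a count too small to set against it. The mean was 4082 ± 650 in low Fe and 3130 ± 255 in high Fe (SD, n = 3 each).

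The third Slc40a1 probe set, 1376972_at, was dimmer, with signals of 326, 397 and 514 in low Fe and 357, 578 and 344 in high Fe. The groups overlapped fully, and here low Fe replicate 3 was the highest of its group. The mean was 412.5 ± 95.1 in low Fe and 426 ± 131 in high Fe (SD, n = 3 each). By the accessions in the annotation, the brightest probe set was designed on the RefSeq mRNA of Slc40a1 and the other 2 on expressed sequence tags, and which transcripts each one detects is not known here.

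Heph was measured by 1 probe set, 1368533_at, with signals of 7462, 7274 and 5988 in low Fe, against 6440, 7354 and 5873 in high Fe. The groups overlapped and replicate 3 was the lowest sample of each. The mean was 6908 ± 802 in low Fe and 6556 ± 747 in high Fe (SD, n = 3 each), and the SD was 11.6% and 11.4% of these means.

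**Figure D1:**
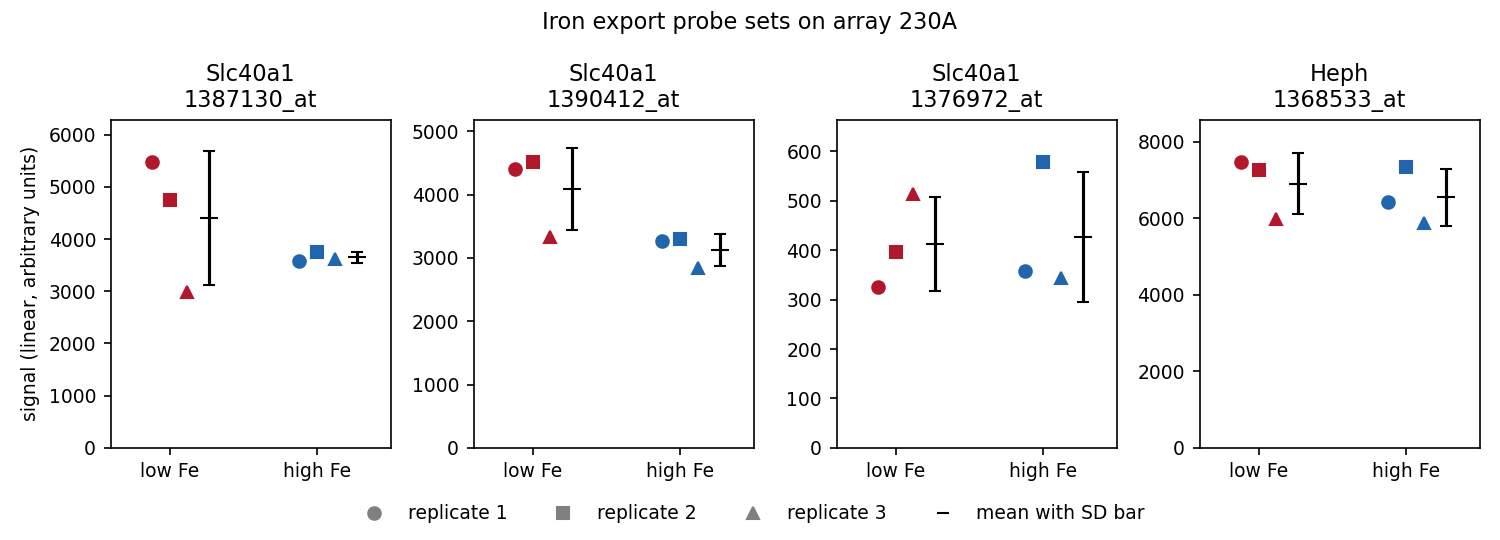
Signals of the 4 member probe sets (y axis, linear array signal) in low Fe (left, red) and high Fe (right, blue) samples, with a marker shape for each replicate number and a black mean with SD bar. For 1387130_at the low Fe samples spread from 2978 to 5469 around high Fe samples between 3573 and 3756, and for 1390412_at the groups do not overlap.

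Low Fe was compared with high Fe by limma on log2(signal + 16), fitted over all 9519 probe sets, with Benjamini-Hochberg adjustment and a threshold of adjusted p 0.05. Of these probe sets 9 passed, or 0.0945%, with 0.084% higher and 0.0105% lower in low Fe, and 0 of the 4 members did. The log2 difference of Slc40a1, low Fe minus high Fe, was 0.22 ± 0.21 (SE) for 1387130_at, with a 95% interval from -0.24 to 0.69 (adjusted p = 0.857). This interval covers low Fe levels from 0.846 to 1.61 times those of high Fe. For 1390412_at the log2 difference was 0.37 ± 0.15, with an interval from 0.04 to 0.70, an unadjusted p of 0.0323 and an adjusted p of 0.720 by limma. An unadjusted p under 0.05 was found for 6.68% of all tested probe sets. For 1376972_at it was -0.03 ± 0.24, with an interval from -0.56 to 0.50 (adjusted p = 0.986).

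For Heph the log2 difference was 0.07 ± 0.14, with an interval from -0.23 to 0.38, or 0.851 to 1.30 times (adjusted p = 0.921). This is the narrowest interval of the 4 member probe sets. A p above the threshold does not show that the levels were equal, and the intervals are what 3 samples a group allow.

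The members were then set beside the genes that bring iron into the enterocyte. Slc11a2, the apical ferrous iron importer, had signals of 12950, 13482 and 11841 in low Fe, against 3398, 2280 and 2767 in high Fe. Its log2 difference was 2.19, with an interval from 1.84 to 2.54 (adjusted p = 0.000892) that lies above the intervals of all 4 member probe sets. A less bright Slc11a2 probe set gave 1.73 ± 0.26, with an interval from 1.13 to 2.33, and did not pass (adjusted p = 0.0806). The within-array difference of log2 signals, Slc40a1 minus Slc11a2, was -1.24, -1.50 and -1.99 in low Fe, against 0.07, 0.72 and 0.38 in high Fe. All low Fe samples lay below all high Fe samples. The 2 group means differed by -1.97 on the log2 scale, so Slc40a1 relative to Slc11a2 was at 0.256 times its high Fe value in low Fe (exact permutation test, two-sided p = 0.1, the smallest that 3 against 3 samples allow).

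Heph minus Slc11a2 gave -0.79, -0.89 and -0.98 in low Fe, against 0.92, 1.68 and 1.08 in high Fe. These groups did not overlap either, and the means differed by -2.12 (exact permutation p = 0.1, the smallest possible). Slc11a2 was chosen for this with its rise known, so the separation describes how far the export genes stayed from the importer and is no independent test. Slc40a1 minus Heph, which compares the exporter with its ferroxidase, gave -0.45, -0.61 and -1.004 in low Fe and -0.85, -0.97 and -0.70 in high Fe. The groups overlapped and their means differed by 0.15 (exact permutation p = 0.5). With the mean of all 3 Slc40a1 probe sets in place of the brightest, the difference was 0.11 with an exact permutation p of 0.1, the smallest possible, so that p depends on the choice of probe set.

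**Figure D2:**
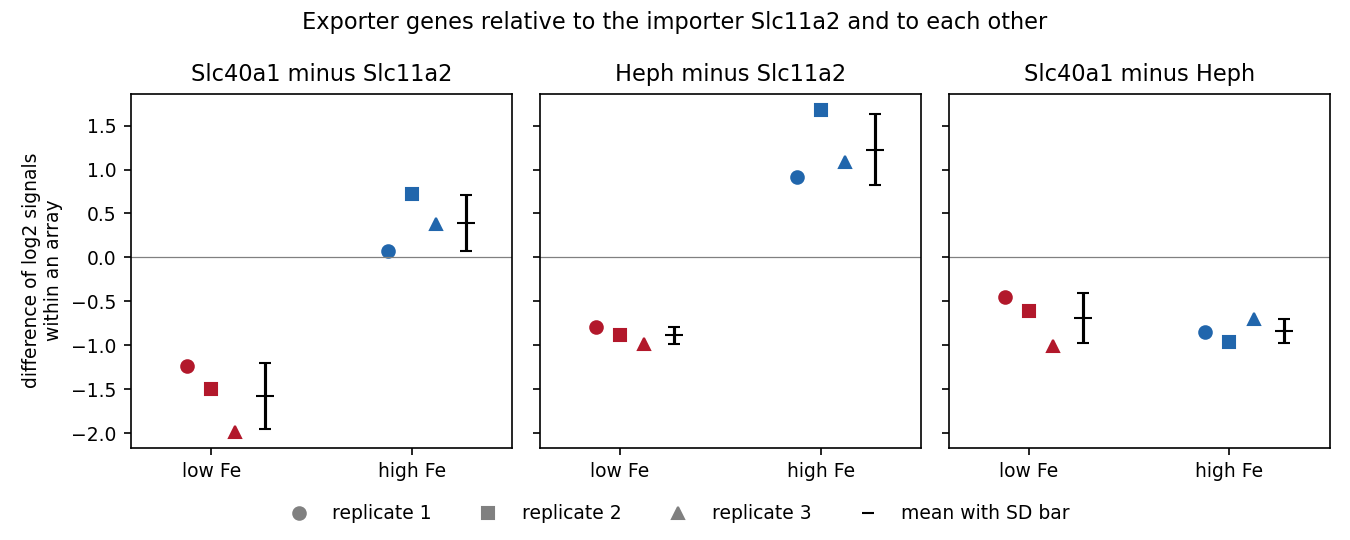
Within-array differences of log2(signal + 16) (y axis) for Slc40a1 minus Slc11a2, Heph minus Slc11a2 and Slc40a1 minus Heph, low Fe left and high Fe right, with a marker for each replicate and a black mean with SD bar. The shift between groups can be read, but the height itself cannot, since different probe sets differ in brightness for the same amount of transcript. Both differences against Slc11a2 are lower in all low Fe samples, and Slc40a1 minus Heph overlaps.

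The apical and cytosolic iron route was given by a list of 9 genes, of which 7 were tested on 230A. Of these 3 rose, 0 fell and 4 did not pass, with a median log2 difference of 0.35, against -0.0018 over all tested named genes. Over all tested 230A probe sets 0.084% passed higher in low Fe and 0.0105% lower, and the list was chosen with earlier results known. The risers were Cybrd1, the ferric reductase of the brush border (3.91 ± 0.28), Slc11a2, and Hmox1, the heme oxygenase that frees iron from heme (1.31 ± 0.16, limma adjusted p = 0.0251). Hmox1 did not pass with any 1 of low Fe replicates 2 or 3 or high Fe replicates 2 or 3 left out, with adjusted p-values of 0.188, 0.136, 0.0606 and 0.118 in that order. Slc46a1, a folate transporter that can carry heme, gave -0.41 ± 0.20. The iron chaperones Pcbp1 and Pcbp2, of which Pcbp2 can bind ferroportin, gave 0.04 and 0.06, and Ncoa4, the receptor for ferritin breakdown, gave 0.35. Fth1 and Ftl1, the ferritin subunits, had no probe set assigned to them alone.

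Among transcripts with iron responsive elements, 6 of 9 were tested, and the median was 0.33, against -0.0018 over all tested named genes. Of the 6, 2 rose, with Slc11a2 counted again, and 0 fell, where 0.084% of all tested 230A probe sets passed higher in low Fe. The 2 were Tfrc, the transferrin receptor, at 2.74 ± 0.23 (limma adjusted p = 0.00216, and 1.67 ± 0.41 with 0.488 for a dimmer probe set), and Slc11a2. Their elements lie behind the coding sequence, for Slc11a2 in some of its messengers. In Slc40a1, Alas2, the erythroid heme synthesis enzyme (-0.21), and Epas1, the hypoxia-inducible factor 2 alpha subunit (0.43 ± 0.15, adjusted p = 0.681), the element lies ahead of it, and none of these passed. Cdc42bpa, a cytoskeletal kinase, gave -0.17 and did not pass, and it is not sorted by element position here. Whether a difference goes with the position of the element was not tested.

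Regulators of ferroportin were given by 12 genes, of which 9 were tested on 230A, with 0 higher, 0 lower and a median of -0.03. Hamp, which encodes hepcidin and is made mainly in the liver, had a mean signal of 130 in low Fe and 132 in high Fe, just above the filter boundary, and a log2 difference of -0.03. Hif1a gave -0.87 ± 0.17 without overlap between the groups (limma adjusted p = 0.209). Epas1 gave 0.43 ± 0.15, also without overlap but higher in low Fe (limma adjusted p = 0.681). Groups separated toward lower values in low Fe for 6.18% of tested 230A probe sets and toward higher values for 5.61%. Aco1 and Ireb2, the iron regulatory proteins 1 and 2, gave -0.03 and -0.25 on 230A. On 230B Ireb2 gave 0.39 ± 0.16, higher in low Fe without overlap (limma adjusted p = 0.466). Groups separated in this direction for 7.11% of tested 230B probe sets. Mtf1, the metal response factor, gave 0.29, and Nedd4l, a ubiquitin ligase, gave -0.17. Under the 230B filter boundary, Mtf1 had signals of 185 to 325 in low Fe, against 41.8 to 96.5 in high Fe. Of 3 tested on 230B, 0 passed, with -0.51 ± 0.58 for Bach1, a heme-sensing repressor, and -0.02 for Rnf217, a ubiquitin ligase.

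Copper supply bears on hephaestin because the enzyme needs copper. The list of multicopper oxidases and copper genes had 5 of 8 genes tested on 230A, with 0 higher and 0 lower and a median of -0.0008. Cp, which encodes the plasma ferroxidase ceruloplasmin, lay under the filter boundary in all 3 of its probe sets, the brightest with a mean signal of 62.9 in low Fe and 58.5 in high Fe. Slc31a1, the copper importer, gave 0.06, and Atox1, the chaperone that hands copper to the secretory route, -0.06. Atp7b, a copper-exporting ATPase, gave -0.37 ± 0.17 without overlap. Atp7a, the ATPase that loads copper into secreted and membrane enzymes, had signals of 5098, 7959 and 6788 in low Fe, against 2720, 2407 and 2275 in high Fe, on 230B. Its log2 difference was 1.40 ± 0.19 and did not pass (adjusted p = 0.139). This is the brighter of 2 tested Atp7a probe sets on 230B. The 230A probe set lay under the boundary, with mean signals of 16.9 in low Fe and 17.6 in high Fe. On 230B 0 of 9165 probe sets passed by limma (0.0%), with 932 at an unadjusted p under 0.05, and groups separated toward higher values in low Fe for 7.11%.

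Systemic iron sensing genes had 5 of 12 tested on 230A, with a median of -0.08, against -0.0018 over all tested named genes. Of these 1 rose, Tfrc, already counted above, and 0 fell, where 0.084% of all tested 230A probe sets passed higher in low Fe. Bmpr1a, a receptor of the bone morphogenetic protein pathway that induces hepcidin, gave -0.39 ± 0.15 without overlap (adjusted p = 0.716), and the inhibitory Smad6 and Smad7 gave -0.26 and -0.08. On 230B Bmp6, a ligand of that pathway, gave -0.94 ± 0.52, with overlap, and 0 of 2 passed.

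Other proteins of the enterocyte's basolateral membrane showed the range in which Slc40a1 and Heph lay. Of 21 such genes, both members included, 14 were tested on 230A, with 0 higher, 0 lower, 7 above and 7 below a log2 difference of 0, and a median of 0.02. The members with the smallest unadjusted p were Atp2b1, the calcium pump (-0.63 ± 0.24), Slc12a2, the sodium-potassium-chloride cotransporter (0.88 ± 0.40), Slc4a4, a bicarbonate cotransporter (-0.26 ± 0.17), and Slc2a2, the glucose exit transporter (-0.21 ± 0.15). Atp1b1, a subunit of the sodium pump, gave 0.06, Slc7a7 and Slc3a2, which together form an amino acid exchanger, 0.06 and -0.01, and Slc39a14, a metal importer, 0.07. Of 5 tested on 230B, 0 passed, with 0.54 ± 0.32 for Atp2b1, opposite in sign to its 230A probe set, and -0.43 ± 0.27 for Abca1, a cholesterol exporter.

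**Figure D3:**
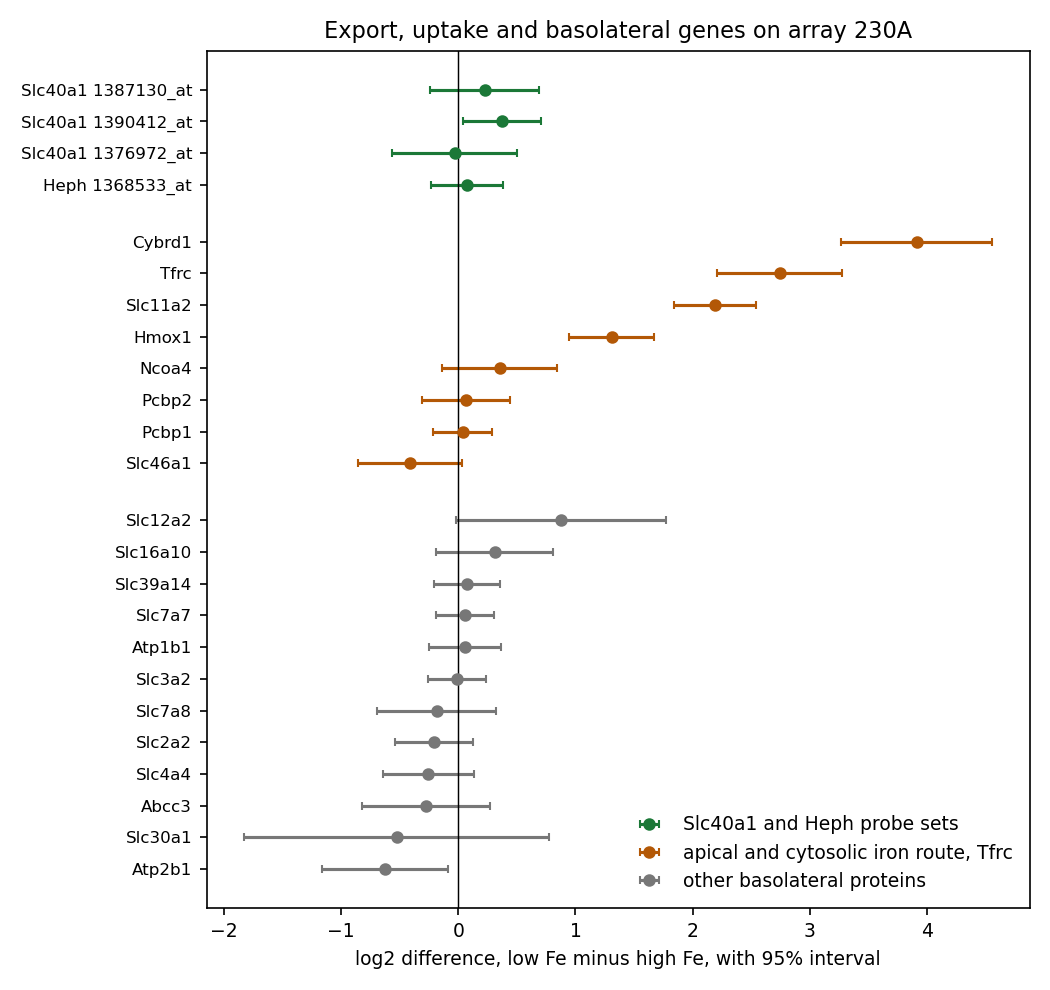
Log2 differences, low Fe minus high Fe (x axis), with 95% intervals from limma for the member probe sets (green), the iron route genes and Tfrc (orange) and the other basolateral genes (grey), each by its brightest tested 230A probe set. Cybrd1, Tfrc, Slc11a2 and Hmox1 lie to the right of all member intervals, and Hmox1 is the nearest to them, with an interval from 0.95 to 1.67.

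The probe sets of Slc40a1 did not all vary alike. Over the 6 arrays, log2 signals of 1387130_at and 1390412_at had a Pearson correlation of 0.81, and after subtracting group means of 0.87. Against 1376972_at the correlations were -0.52 and -0.21. Heph followed the 2 bright Slc40a1 probe sets from array to array, with r = 0.77 and 0.90 after subtracting group means. These are descriptions over 6 points that share the arrays, their scaling and the RNA of each sample.

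Of the 8042 other named probe sets, those most like 1387130_at by Pearson correlation over the 6 arrays were Adar, an RNA-editing enzyme (0.99), Tmem167a (0.96) and Evi5, a regulator of small GTPases (0.96), and the least like was Plbd1 (-0.99). For Heph, ranked against 8044 probe sets, they were Tmem127 (0.99), Pold3, a DNA polymerase delta subunit (0.98), and Plpbp (0.96), with Celf2, an RNA-binding protein, the least like (-0.98). They are the ends of a ranking over 6 points, and none of these genes passed the test between the groups.

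Low Fe replicate 3 was the lowest low Fe sample for both bright Slc40a1 probe sets and for Heph. The beta-actin controls of that array, whose signal near the 5′ end relative to the 3′ end falls when RNA or labelled target is short, had a 5′/3′ ratio of 0.0539. The other 5 arrays of this type had ratios of 0.591 to 0.836. The same ratio for GAPDH was 0.794, at the low end of 0.794 to 0.922. The 230B array of the same sample had a beta-actin ratio of 0.0473, against 0.499 to 0.896 on the other 230B arrays. Its GAPDH ratio on 230B was 0.873, inside the range of 0.821 to 0.939 of the other 230B arrays. The part of RNA quality in the Slc40a1 spread was not tested. Without low Fe replicate 3 the log2 difference was 0.48 for 1387130_at (unadjusted p = 0.00875) and 0.51 for 1390412_at (unadjusted p = 0.00712), with an adjusted p of 0.998 for both by limma. It was 0.17 for Heph and -0.20 for 1376972_at. In that fit 434 of 9519 probe sets had an unadjusted p under 0.05, and the array left out was the lowest of its group for both bright probe sets. Without low Fe replicate 1 the brightest probe set gave 0.04 (limma unadjusted p = 0.820), and without low Fe replicate 2 it gave 0.15 (0.562), so its value rests on single samples. The probe set 1390412_at ran from 0.29 to 0.51 over all 6 omissions, with limma unadjusted p-values of 0.0870 and 0.119 for the same 2 omissions. Within the arrays of lower GAPDH ratio, 2 low Fe and 1 high Fe, differences were 0.07 for 1387130_at, 0.25 for 1390412_at, 0.33 for 1376972_at and 0.04 for Heph. Within those of higher ratio, 1 low Fe and 2 high Fe, they were 0.57, 0.52, -0.43 and 0.18 in the same order, so the dim Slc40a1 probe set changed sign between the sets.

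**Figure D4:**
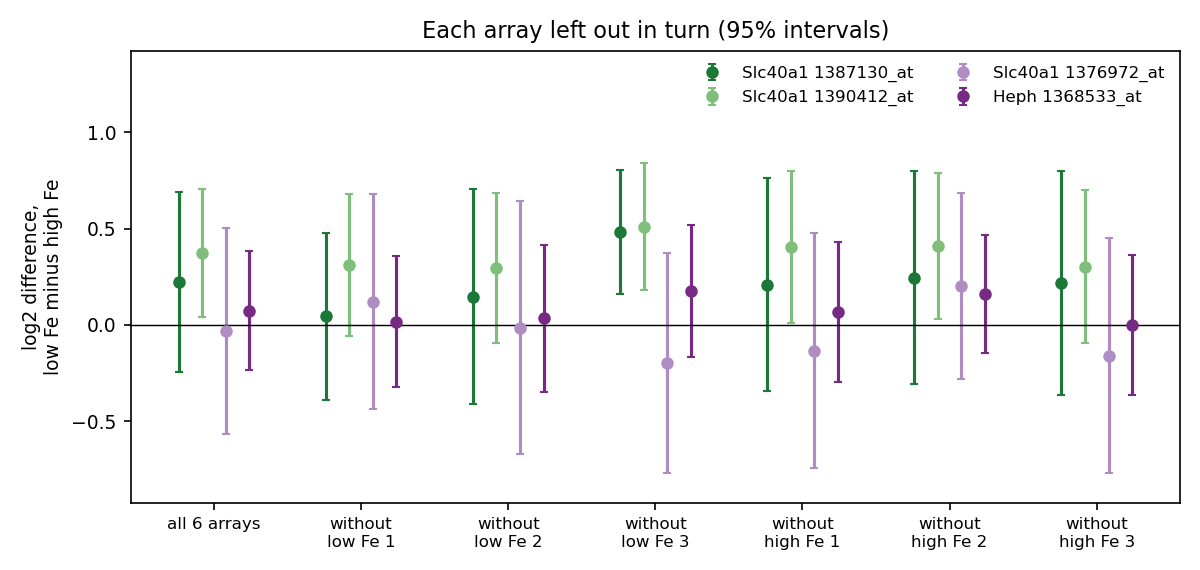
Log2 differences with 95% limma intervals (y axis) of the 4 member probe sets with all 6 arrays and with each array left out (x axis). The brightest Slc40a1 probe set moves between 0.04 and 0.48, both values from leaving out a low Fe sample, and Heph stays between -0.0013 and 0.17.

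In scrapings, fewer cells of a type and less RNA per cell cannot be told apart, so markers of the cells that hold ferroportin or hephaestin were listed. Enterocyte markers of the labelled tissue were present in every sample, with 8 of 8 measured on 230A tested, 0 past the threshold and log2 differences from -0.23 to 0.03. Those with the smallest unadjusted p were Alpi, the brush border alkaline phosphatase (-0.23), Fabp1, a fatty acid binding protein (-0.17), Apoa4, an apolipoprotein (-0.16), and Anpep, an aminopeptidase (-0.09). The summed signal of all 8 ran from 78293 to 102446 in low Fe and from 74154 to 126519 in high Fe. Of macrophage markers, cells that also carry ferroportin, 6 of 9 were tested, 0 passed, 5 lay above 0, and the summed signal ran from 3510 to 4340 in low Fe and from 2327 to 3970 in high Fe. Cd68, Cd14 and Itgam lay under the filter boundary in both groups, and Lyz2, a lysozyme, made up most of the sum with a log2 difference of 0.43 ± 0.25. Aif1 gave -0.24 ± 0.16, and the complement genes C1qc and C1qa 0.34 ± 0.23 and 0.23 ± 0.21. On 230B both tested macrophage markers lay below 0, Cd163 at -0.05 and Mrc1 at -0.07, and 0 passed. Of smooth muscle markers, cells in which hephaestin can also occur, 5 of 8 were tested, 0 passed, all 5 lay above 0, and the summed signal ran from 4523 to 5928 in low Fe, above the 3505 to 4211 of high Fe. The groups did not overlap, higher in low Fe, for 3 of these 5, against 5.61% of all tested probe sets. Smtn, which encodes the smooth muscle protein smoothelin, had signals of 139.5, 238.5 and 179.5 in low Fe, against 75.1, 48.3 and 114.9 in high Fe, a log2 difference of 1.11 ± 0.29 (limma adjusted p = 0.522). Des, the muscle intermediate filament desmin, gave 0.59 ± 0.22, and Mylk, a myosin kinase that other cells also express and that held most of the sum, 0.43 ± 0.13, both without overlap. Acta2, smooth muscle actin, gave 0.29 ± 0.19. Tagln, Cnn1 and Actg2 lay under the boundary, and Tagln had signals of 39.0 to 88.8 in low Fe, against 10.6 to 27.2 in high Fe. The other 2 overlapped, with mean signals of 89.2 in low Fe and 59.6 in high Fe for Cnn1, and 90.9 and 90.1 for Actg2. On 230B, Des and Mylk gave 0.41 ± 0.53 and 0.09 ± 0.42, with overlap. Under the 230B boundary, Myh11 had a mean signal of 82.3 in low Fe and 164 in high Fe, and Smtn of 212 and 143, both with overlap. The part of muscle and of macrophages in the member values was not tested.

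Of other markers, Hbb, a globin of red blood cells, gave -0.54 ± 0.19 without overlap (limma adjusted p = 0.680). Slc4a1, the red cell anion exchanger, gave 0.0069 and Alas2 -0.21, both with overlap. The summed signal of the 3 erythroid markers, most of it from Hbb, ran from 767 to 946 in low Fe and from 976 to 1294 in high Fe. The region markers Gata4, Gip and Cck of the proximal bowel gave 0.02, 0.02 and 0.16, and Pdx1 gave 0.23 ± 0.41. Onecut2 gave -0.98 ± 0.25 without overlap (limma adjusted p = 0.509), and -0.53 ± 0.45 with overlap on 230B. Groups separated toward lower values in low Fe for 6.18% of tested 230A probe sets. The ileal genes Fabp6 and Slc10a2 lay under the boundary. Endothelial markers on 230A were under it in 3 of 3 cases, and Tek and Kdr on 230B gave -0.40 ± 0.23, without overlap, and -0.04. Of the 5 neuronal or glial markers 3 were under the boundary, and S100b and Gfap gave -0.63 ± 0.31 and 0.07.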

How the data were processed

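Gene expression was measured on Affymetrix rat arrays 230A and 230B in 3 low Fe and 3 high Fe samples, grouped by their titles. The deposited tables give an intensity for every probe set on a linear scale, and how the authors computed it is not stated in the labels. Trimmed means (2% off each end) of 500.1 to 500.2 on all arrays show that the values had been scaled to a common mean, which hides any shift common to the whole transcriptome and leaves the 2 types not comparable. Array medians were 154 to 176 for 230A and 259.5 to 302.6 for 230B. The number of arrays limits the precision.

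Gene names come from the platform annotation, updated through Entrez identifiers to RefSeq. On 230A 12783 probe sets had 1 symbol, 312 several and 2771 none, and on 230B 7564, 100 and 7612. Control probe sets, 57 per type, were left out. Values were transformed as log2(signal + 16), the 40% with the lowest mean log2 value were left out, and low Fe was compared with high Fe per array type with lmFit and trended eBayes of limma 3.58.1 in R 4.3.3. Differences on this scale understate changes of dim genes. The steps were tested on simulated data. For a gene with several probe sets, the brightest stands for it in lists. Named are all member probe sets, for 230A lists the tested members with the smallest unadjusted p, up to 4, and the 3 most alike and 1 least alike genes by correlation. Further list genes are named with their values in view. The members and lists were chosen with earlier results of these data known.

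Deviations from group means of samples with the same number had correlations between -0.36 and -0.15 on 230A and between -0.27 and -0.10 on 230B, so the numbers gave no sign of pairing. No arrays were identical, with correlations from 0.962 to 0.979 on 230A.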

Additional observations from a re-analysis of the deposited data

How the results depend on the processing

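Tried were 2 further pseudocounts, 2 filters, 3 scalings, untrended and robust eBayes, 2 blocks, each array left out, the mean of a gene's probe sets and a threshold of 0.1. No member passed adjusted p 0.05 under any of them. Slc40a1 kept its direction in 18 of 18 (0.04 to 0.48 without 1 array). Heph kept it in 17 of 18 and gave -0.0013 without high Fe replicate 3, with 0.17 as the highest value without 1 array. These tallies include settings that could not change a direction. The filters, untrended and robust eBayes and the replicate block leave the difference itself unchanged, and the mean of Heph probe sets is its only probe set. The dim probe set 1376972_at, at -0.03, reversed to 0.036 with a common median, 0.33 with scaling to the hybridization controls, 0.12 without low Fe replicate 1 and 0.20 without high Fe replicate 2, and its lowest value without 1 array was -0.20. The cause was not tested.

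Scaling to the hybridization controls moved the median log2 difference of all 230A probe sets to 0.34, against -0.01 as deposited. The mean log2 signal of these controls was 10.26 for high Fe replicate 2 on 230A, against 9.23 to 9.52 for the other samples. With this scaling the 3 Slc40a1 probe sets gave 0.60, 0.75 and 0.33, from the brightest to the dimmest, and Heph gave 0.45. Relative to that median, they gave 0.26, 0.40 and -0.01 in the same order, and Heph gave 0.11. The within-array differences Slc40a1 minus Slc11a2, Heph minus Slc11a2 and Slc40a1 minus Heph kept their direction in 13 of 13 alternatives each. Scaling to a common median or to the hybridization controls nearly cancels within an array, and the replicate block leaves the difference unchanged. Those settings could therefore not turn a direction. The exact permutation p of Slc40a1 minus Heph was 0.1 with the mean of a gene's probe sets, against 0.5 with the brightest. Without 1 array the 3 differences ran from -2.13 to -1.76, from -2.27 to -1.89 and from 0.03 to 0.31, in the order named.

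The count of 9 called probe sets on 230A was 33 with scaling to the hybridization controls, 14 with a block for the GAPDH ratio sets, 15 at a threshold of 0.1, and 5 to 21 without 1 array. On 230B the count of 0 became 4 with scaling to the hybridization controls and stayed 0 without any 1 array. With the replicate number as a block, 4 probe sets passed on 230A, Slc40a1 gave 0.22 (adjusted p = 0.950) and Heph 0.07. The labels give no sign that numbers pair samples, and the block changed no call of Slc11a2, Cybrd1 or Tfrc but ended that of Hmox1 (adjusted p = 0.152). Without the filter Hmox1 did not pass either (0.0737).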
